A study of Mus musculus with 16 samples.

Results

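The change in gene expression with neonatal DES was compared between WT and αERKO seminal vesicles (SVs), as the genotype by DES interaction. For each gene it is the log2 change with DES in WT minus the log2 change with DES in αERKO, on values of log2(FPKM + 1). It was taken over all 16 samples of the series for 15988 of 31274 genes, those whose mean FPKM exceeded 1 in any group. RNA came from the SVs of C57BL/6 male mice at 5 weeks of age. The pups had received 2 µg of DES (diethylstilbestrol) in corn oil per day on days 1 to 5 of life, or corn oil alone as vehicle (veh). There were 4 samples in each of 4 groups, named WT-veh and WT-DES for wild type, and αERKO-veh and αERKO-DES for mice that carry a disrupted *Esr1* in every cell. The study's methods describe pools of mice for WT-DES and single mice for the other groups, and the WT pups did not come from the αERKO litters, so neither pooling nor litter source can be told apart from these groups.

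Oestrogen receptor α (ERα), the product of *Esr1*, is a nuclear receptor that binds oestrogens, joins DNA or other transcription factors and raises or lowers transcription of its targets. DES is a synthetic oestrogen that binds ERα and oestrogen receptor β. The SV is an accessory gland of the male that grows from the Wolffian duct under androgens. Its luminal epithelium secretes most of the seminal plasma proteins into a lumen wrapped in stroma and smooth muscle.

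*Esr1* was lower in every αERKO sample than in every WT sample, which checks the genotype labels, and its own change with DES was 1.61 in WT and −0.14 in αERKO, which made an interaction of 1.75 (SE 0.27, limma adjusted p = 4.66e-05), where SE is the standard error. *Esr2*, which encodes oestrogen receptor β, had a mean FPKM between 0.212 and 0.935 in the 4 groups and was not tested. SV secretory genes were the most abundant in both vehicle groups, with *Svs5* at a mean of 10817 FPKM in the WT and 7108 in the αERKO samples. Summed FPKM per sample ran from 375207 to 652708 and was lowest in the 4 WT-DES samples. FPKM holds no counts, so the depth of a sample is unknown and precision rests on the spread of 4 samples. Some samples stood apart. Skeletal muscle markers were high in WT-veh replicate 4 and in αERKO-veh replicates 2, 3 and 4, and WT-DES replicate 1 was far from the other WT-DES samples for several genes, among them *S100a9* and *Tagln*. The interaction was called for 8922 genes without WT-veh replicate 4, for 9313 without WT-DES replicate 1 and for 7404 when αERKO-veh replicates 2, 3 and 4 were all left out.

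With all samples, the change with DES differed between the genotypes for 9025 of 15988 genes (56.4%), with 0.05 as the limit on the limma adjusted p and 1.5-fold as the least difference. The change was higher in WT for 4729 of them (29.6%) and lower in WT for 4296 (26.9%). DES alone changed 7731 genes in WT (48.4%) and 224 in αERKO (1.4%), by the same thresholds. Of the interaction genes, 7349 changed in WT and did not pass in αERKO, 81 changed in αERKO and did not pass in WT, 112 changed in opposite directions, 2 changed in the same direction and 1481 passed in neither genotype alone. The absolute change was larger in WT for 8718 of the interaction genes and larger in αERKO for 307. Genes with a higher change in WT had a median change of 1.01 in WT and −0.21 in αERKO, and those with a lower change had −0.86 and 0.22. These medians share samples with the interaction that chose the genes, so they describe it and support nothing further.

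Direction over all genes depended on scaling. When samples were set to equal totals without the 20 most abundant genes, the median interaction of all genes moved from 0.0015 to 0.50, and 78.3% of the called genes were higher in WT, against 52.4% with FPKM as deposited. A list's median below is therefore to be read against the median of all genes under the same scaling. Of 41 lists, 3 changed side of that median under at least 1 of 4 other scalings, and for 12 the larger of the counts called higher and called lower moved by over 1.5 times. Both kinds are named where they come up, and the shares of 29.6% and 26.9% of all genes are the background of each list's counts with FPKM as deposited. Counts under another scaling have another background. Of all 15988 genes, 7118 were called higher and 1969 lower at equal totals, and 3661 and 4135 under quantile normalization. After correction for transcript length they were 4252 and 3623 of 15035.

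**Figure D1:**
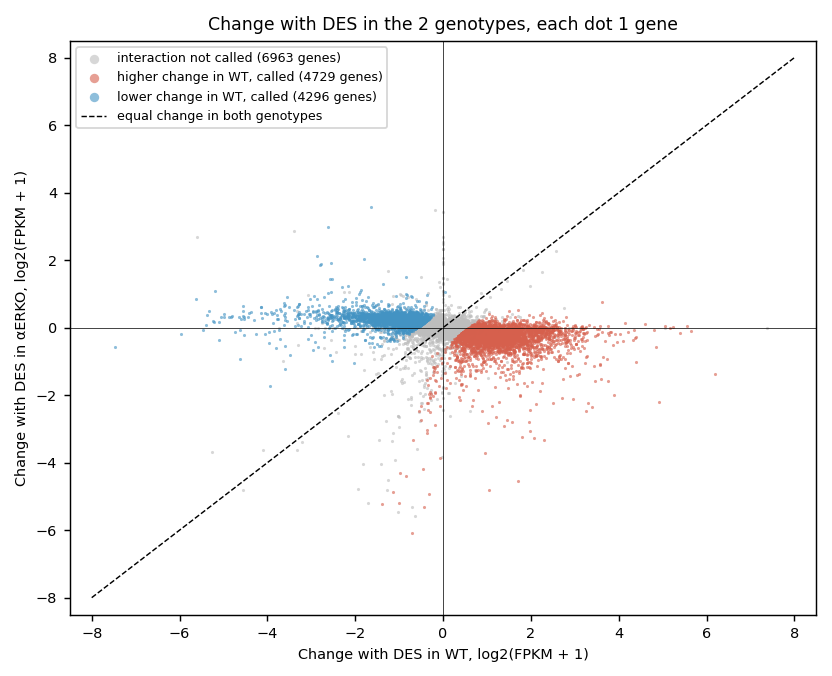
Each dot is 1 of the 15988 tested genes, with its change with DES in WT on the horizontal axis and in αERKO on the vertical axis, both on log2(FPKM + 1). The 9025 coloured genes were called in the interaction and spread along the horizontal axis, while the genes near the dashed line of equal change lie mostly close to 0 on both axes.

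Of genes with a mean FPKM of at least 10 whose WT-DES samples were separate from the other 12, those with the lowest interaction were high in WT-veh and in both αERKO groups and low in WT-DES. *Tgm4*, a transglutaminase that cross-links seminal proteins into the copulatory plug, lies on GRCm38 chromosome 9 (123034726 to 123067561, plus strand) in GENCODE M21. It was at an FPKM of 1856, 1679.6, 1594 and 1453 (WT-veh), 152, 27.4, 6.62 and 66.6 (WT-DES), 1643, 1516, 2256 and 1607 (αERKO-veh) and 1958, 1749, 2014 and 1635 (αERKO-DES). Its change with DES was −5.41 in WT and 0.080 in αERKO, an interaction of −5.49 (SE 0.85, limma adjusted p = 4.69e-05). All 4 WT-DES samples were below the other 12, as they were for 3836 genes in all (24%). The row named *Ren2* had no match in the annotation. *Ren2* is a renin gene that some mouse strains carry and C57BL/6 lacks, so that which gene the row measures was not settled. It had an interaction of −6.27 (SE 0.88, limma adjusted p = 1.88e-05) and was at 146, 93.1, 113 and 73.5 (WT-veh), 5.65, 0.7, 0.24 and 3.68 (WT-DES), 112, 19.9, 195 and 184 (αERKO-veh) and 237, 201, 174 and 201 (αERKO-DES). αERKO-veh replicate 2 was the lowest of the 12 samples outside WT-DES but still above all 4 WT-DES samples. The lowest interaction of all named genes was that of *Pnliprp1*, which encodes a pancreatic lipase related protein, at −6.47 (SE 0.80, limma adjusted p = 5.76e-06). *Orm3*, an orosomucoid, had −5.81 (SE 0.45, limma adjusted p = 7.52e-08), and *Dnase2b*, an acid endonuclease, had −5.76 (SE 0.51, limma adjusted p = 2.58e-07). The 3 others named only by clone identifiers were *9530002B09Rik* at −5.78, *9530053A07Rik* at −5.44 and *9530003J23Rik* at −5.39, each past the same limma threshold.

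All 12 tested genes of SV secretory proteins were called lower, with a median interaction of −4.77, from a median change with DES of −4.49 in WT and 0.30 in αERKO. *Svs5* had an interaction of −3.13 (SE 0.49, limma adjusted p = 4.48e-05) and *Svs4* one of −2.89 (SE 0.49, limma adjusted p = 9.59e-05). Among the other members, which like all list members beyond the 2 with the highest level were picked out after their values were seen, *Svs3a* had −5.19, *Sva* −5.31 and *Spink3*, a trypsin inhibitor of the seminal plasma, −4.85. *Svs4* was the least certain of them, with an adjusted p of 0.0616 without a minimum on FPKM and 0.72 under quantile normalization by the same limma test. Of 5 genes of the prostate lobes, 3 were called lower, among them *Pbsn* (probasin, −5.38) and *Tgm4*. *Msmb* and *Sbp* were not called, at −1.56 and 0.27, and had low values with DES in both genotypes. *Msmb* changed by −5.25 in WT and −3.69 in αERKO, both called, and *Sbp* by −4.55 in WT and −4.82 in αERKO, called in WT and not in αERKO. Mean log2(FPKM + 1) of the 5 was 7.46 to 10.29 (WT-veh), 2.65 to 5.54 (WT-DES), 8.91 to 9.69 (αERKO-veh), 7.20 to 7.94 (αERKO-DES). In bulk tissue, fewer cells of a type and less RNA per cell cannot be told apart. Luminal epithelial markers were called lower for 7 of 8 genes, but for 1 under quantile normalization, where 1 was higher and the relative median was −0.11, and for 4 at equal totals. Their summed FPKM was 1988 to 2242 (WT-veh), 1026 to 1268 (WT-DES), 1507 to 1884 (αERKO-veh) and 1814 to 2491 (αERKO-DES). Their part in the secretory gene result was not tested.

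**Figure D2:**
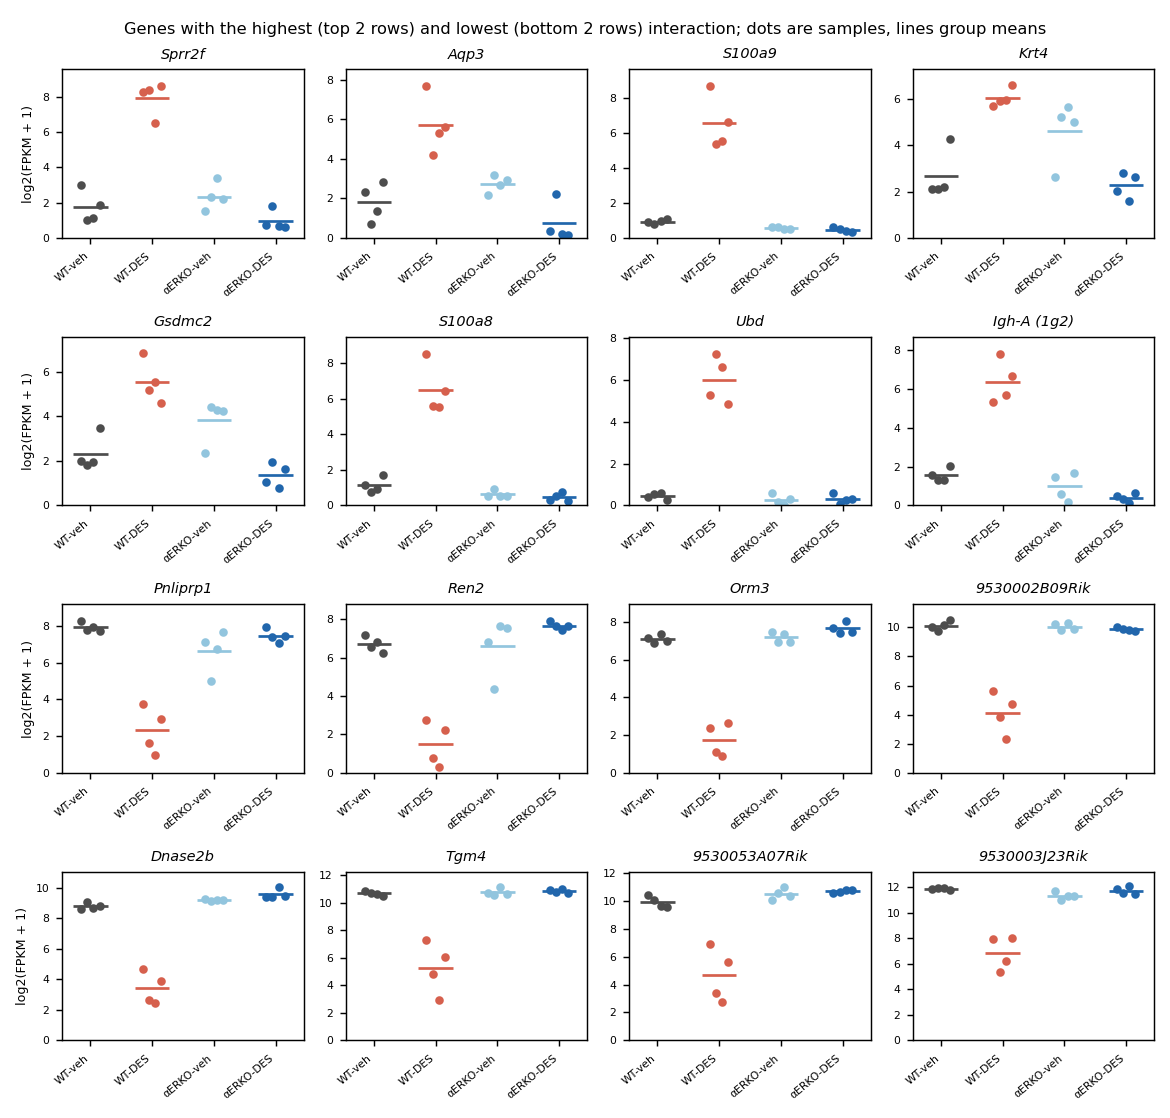
Each panel shows 1 of the 16 genes with the highest (top 2 lines of panels) or lowest interaction, with a dot per sample and a line at the group mean on log2(FPKM + 1). The 4 WT-DES samples lie apart from the other 12 in every panel, which the rule for choosing these genes required.

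Genes for folding and translocation of proteins in the endoplasmic reticulum (ER) were lower with DES in WT and not in αERKO. The interaction was called lower for 28 of 30 genes, with a median interaction of −1.85, from a median change with DES of −1.61 in WT and 0.25 in αERKO. *Calr*, the lectin chaperone calreticulin, had −2.17 (SE 0.20, limma adjusted p = 4.52e-07), and *P4hb*, a protein disulphide isomerase, had −2.09 (SE 0.16, limma adjusted p = 8.32e-08). *Hspa5*, the main ER chaperone BiP, was at an FPKM of 560.2, 613, 611 and 599.9 (WT-veh), 162, 139, 150.4 and 167 (WT-DES), 624, 495, 859.6 and 550.0 (αERKO-veh) and 789.6, 701, 932 and 650.4 (αERKO-DES), with an interaction of −2.24 (SE 0.21, limma adjusted p = 5.01e-07). Every WT-DES sample was below every other sample. *Creld2* had −3.36, *Sdf2l1* −3.92 and *Manf*, a secreted factor that is induced by ER stress, −3.13. *Atf6*, a sensor of ER stress, had −0.90 and *Xbp1*, a transcription factor activated by the sensor *Ern1*, −1.23, both called, while *Ern1* (−0.77) and *Sel1l* (−0.57), an adaptor of ER-associated degradation, were not.

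Many ER chaperone promoters carry the ER stress element, which is bound by ATF6 and NF-Y. It was searched on both strands as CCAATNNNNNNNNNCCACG in the RefSeq windows from 250 bases before to 50 bases after each gene's start (GRCm38.p6). It was found in 37 of 27025 genes with a window (0.137%), in 19 of 11173 tested genes (0.170%) and in 7 of 25 genes of the ER list (28%). Those 7 were *Calr*, *Canx*, *Creld2*, *Dnajc3*, *Hsp90b1*, *Hspa5* and *Pdia6*, all with a lower change in WT. The 60 bases around the match are printed 5′ to 3′ on the strand of the gene for 4 of them, with the element in capitals, since these are ER list genes that share it. They lie at chr2:34772005-34772064 (plus strand), chr12:17266471-17266530 (plus strand), chr15:88819500-88819559 (plus strand) and chr8:84847054-84847113 (minus strand). In *Creld2* and *Calr* the element reads on the opposite strand.
Hspa5: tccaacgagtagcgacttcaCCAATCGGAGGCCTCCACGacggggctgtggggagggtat
Pdia6: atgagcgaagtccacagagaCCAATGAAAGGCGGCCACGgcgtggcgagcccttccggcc
Creld2: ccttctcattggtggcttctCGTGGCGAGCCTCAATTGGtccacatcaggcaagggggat
Calr: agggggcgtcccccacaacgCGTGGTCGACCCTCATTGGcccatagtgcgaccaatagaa

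A match is a description of the sequence and not a binding site. Interactions of the 4 genes were −2.24 (*Hspa5*), −2.40 (*Pdia6*), −3.36 (*Creld2*) and −2.17 (*Calr*). Outside the list, *Derl3*, which takes part in ER-associated degradation, and *Syvn1*, the ubiquitin ligase of that pathway, also held the element and had interactions of −4.89 and −1.86. Of all 19 tested genes with the element, 10 were called lower, 4 higher and 5 were not called. Those called higher were *Adcy3* (1.94), *Acacb* (1.97), *Zfp57* (1.64) and *Spats2l* (1.34).

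Genes for energy supply, translation and protein turnover had counts that depended on scaling. Subunits of oxidative phosphorylation were called lower for 69 of 80 genes and higher for 2, with a median interaction of −1.11, from a median change with DES of −0.95 in WT and 0.15 in αERKO. Those called lower numbered 27 under quantile normalization, 37 at equal totals and 36 after length correction, with a median relative to all genes of −0.25, −1.05 and −0.54. *Cox4i1*, of cytochrome c oxidase, had −1.20 (SE 0.20, limma adjusted p = 7.9e-05) and *Atp5e*, of ATP synthase, had −1.71 (SE 0.23, limma adjusted p = 1.1e-05). The 2 called higher were *Cox6a2* (3.73) and *Cox8b* (5.86), the forms of their subunits found in striated muscle. Cytosolic ribosomal proteins were called lower for 76 of 83 genes, at a median of −1.15, with *Rpl41* at −1.76 (SE 0.24, limma adjusted p = 1.33e-05). In the same order of settings 43, 44 and 50 were called lower, at relative medians of −0.54, −1.10 and −0.63. Under quantile normalization *Rpl41* turned positive, at 0.44. Proteasome subunits were called lower for 27 of 37 genes, among them *Psmb4* (−1.01 (SE 0.14, limma adjusted p = 1.66e-05)) and *Psma7* (−1.32 (SE 0.15, limma adjusted p = 3.01e-06)), but for 6 under quantile normalization, 5 at equal totals and 18 after length correction, at relative medians of −0.20, −0.85 and −0.56. The 3 that were called higher were *Psmb8* (1.89), *Psmb9* (1.98) and *Psmb10* (0.93), the interferon-induced catalytic subunits of the immunoproteasome.

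Lipid and redox enzymes were divided. Cholesterol synthesis genes were called lower for 14 of 23, at a median of −0.73, but for 5 at equal totals, where 2 were higher. *Srebf2*, which encodes their main transcriptional activator, had −0.73 (SE 0.21, limma adjusted p = 0.00604) and *Sc4mol*, a sterol oxidase, had −1.12 (SE 0.44, limma adjusted p = 0.032). Glutathione and antioxidant enzymes were called lower for 19 and higher for 12 of 43 genes. Their median was −0.48, but relative to all genes it was 0.21 under quantile normalization and 0.081 after correction for transcript length. Those called lower and higher numbered 6 and 14 under quantile normalization, 6 and 16 at equal totals and 12 and 13 after length correction. *Prdx6*, a peroxiredoxin with phospholipase activity, was at 747, 682, 668 and 631 (WT-veh), 95.3, 86.4, 100.3 and 123 (WT-DES), 586, 452, 599 and 579 (αERKO-veh) and 714, 615, 628 and 576 (αERKO-DES). Its interaction of −2.95 (SE 0.17, limma adjusted p = 9.51e-09) was set by the 4 WT-DES samples, all below the other 12. *Gpx1*, the general glutathione peroxidase, had −0.90 (SE 0.17, limma adjusted p = 0.000225) but was positive under quantile normalization (0.159). On the other side, *Gpx5* (4.48), a secreted peroxidase of the epididymis, and *Gpx2* (3.55), that of the gut epithelium, were called higher. *Gpx5* was at an FPKM of 24.1, 63.4, 49.4 and 8.37 in WT-DES and did not exceed 0.42 in any other sample. The 3 tested markers of epididymis and vas deferens were not called. *Akr1b7* had −2.67 (SE 1.75, limma adjusted p = 0.183), *Defb42* −1.56 and *Crisp1* −0.55, and the summed FPKM of the list was 1038 to 1653 (WT-veh), 109.6 to 685 (WT-DES), 55.7 to 1430.2 (αERKO-veh) and 27.02 to 1149 (αERKO-DES).

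Among genes whose 4 WT-DES samples were separate from the other 12, those with the highest interactions included genes of cornified or mucosal epithelium, of neutrophils and of immune defence. *Sprr2f*, a cornified envelope protein that oestrogen induces in the uterus, lies on GRCm38 chromosome 3 (92365187 to 92366442, plus strand). It was at an FPKM of 7.04, 1.04, 1.18 and 2.69 (WT-veh), 309, 337, 90.4 and 394 (WT-DES), 1.85, 3.93, 9.37 and 3.56 (αERKO-veh) and 0.67, 2.52, 0.6 and 0.55 (αERKO-DES). It had the highest interaction of the named genes, 7.57 (SE 0.74, limma adjusted p = 6.6e-07), from 6.19 in WT and −1.38 in αERKO. All 4 WT-DES samples were above the other 12, as for 3874 genes in all (24.2%). *Aqp3*, a water and glycerol channel of stratified epithelia, had 5.87 (SE 0.93, limma adjusted p = 5.43e-05). *S100a9* and *S100a8*, the calprotectin subunits of neutrophils, had 5.74 (SE 0.69, limma adjusted p = 4.48e-06) and 5.55 (SE 0.68, limma adjusted p = 5.11e-06). *S100a9* was at 415, 41.4, 46.7 and 97.4 in WT-DES and at most 1.09 elsewhere, and replicate 1 was far above the other 3. *Ubd*, a ubiquitin-like modifier induced by interferon γ and TNF, had 5.51 (SE 0.54, limma adjusted p = 5.99e-07), and the immunoglobulin heavy chain alpha entry *Igh-A (1g2)* had 5.42 (SE 0.62, limma adjusted p = 2.87e-06).

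*Krt4* and *Gsdmc2* reached the same range by opposite changes in the 2 genotypes. *Krt4*, a keratin of mucosal stratified epithelium on GRCm38 chromosome 15 (101918535 to 101924735, minus strand), was at 3.38, 3.35, 3.58 and 18.4 (WT-veh), 51.6, 60.5, 62.2 and 98.1 (WT-DES), 5.14, 36.4, 49.04 and 31 (αERKO-veh) and 3.14, 5.91, 2.01 and 5.29 (αERKO-DES). It changed by 3.39 in WT and −2.35 in αERKO, an interaction of 5.74 (SE 0.84, limma adjusted p = 2.66e-05). *Gsdmc2*, a gasdermin of epithelia, changed by 3.24 in WT and −2.47 in αERKO, an interaction of 5.72 (SE 0.75, limma adjusted p = 9.71e-06). In the vehicle groups both were high in WT-veh replicate 4 and αERKO-veh replicates 2, 3 and 4, the samples in which skeletal muscle markers were high. With αERKO-veh replicate 1 alone as the vehicle of its genotype, the interaction was 3.74 for *Krt4* and 4.24 for *Gsdmc2*, and both were still called.

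Genes that oestrogen is known to induce in the female reproductive tract were called higher for 13 of 14, with a median interaction of 2.37, from a median change with DES of 1.85 in WT and −0.26 in αERKO. *Ltf*, which encodes lactoferrin and lies on GRCm38 chromosome 9 (111019271 to 111042767, plus strand), was at an FPKM of 7.9, 5.68, 9.99 and 10.5 (WT-veh), 167, 185, 221 and 193 (WT-DES), 7.29, 2.59, 3.8 and 10.8 (αERKO-veh) and 8.6, 5.92, 1.76 and 3.08 (αERKO-DES). The WT-DES samples were all above the other 12, and the interaction was 4.66 (SE 0.54, limma adjusted p = 2.82e-06). *C3*, the central complement component, had 4.52 (SE 0.44, limma adjusted p = 5.9e-07), and *Pgr*, the progesterone receptor, had 2.67 (SE 0.27, limma adjusted p = 9.42e-07). *Greb1*, a direct ERα target in breast cancer cells, had 2.15, *Areg*, an EGF receptor ligand, 2.05 and *Clca3*, a secreted protein of mucous cells, 3.49. *Lcn2*, a siderophore-binding lipocalin, was not called, at 0.58 (SE 0.44, limma adjusted p = 0.251) with a 95% confidence interval −0.36 to 1.53. It was at 149.5, 149.6, 165 and 181 (WT-veh), 619, 289, 246 and 284 (WT-DES), 127, 64.8, 81.7 and 140.5 (αERKO-veh) and 222, 150.2, 114 and 92.5 (αERKO-DES).

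Steroid receptors were called higher for 5 of 8 genes. *Nr3c1*, the glucocorticoid receptor, had 1.68 (SE 0.20, limma adjusted p = 3.37e-06) and *Nr3c2*, the mineralocorticoid receptor, 0.88. *Esrra*, an orphan receptor that controls mitochondrial genes, passed the p threshold at less than 1.5-fold (−0.34 (SE 0.14, limma adjusted p = 0.0413)), and *Gper1*, the membrane oestrogen receptor, did not pass it (0.23 (SE 0.17, limma adjusted p = 0.243)). Androgen-responsive genes were divided, with 8 called lower and 4 higher of 15. *Pbsn* had −5.38 (SE 0.77, limma adjusted p = 2.15e-05). *Azgp1* (−4.72), *Odc1* (−1.92), the first enzyme of polyamine synthesis, and *Fkbp5* (−1.50) were also called lower. *Ndrg1* (2.11), *Srd5a1* (1.69), a steroid 5α-reductase, *Abcc4* (1.59) and *Steap4* (1.44) were called higher.

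Palindromic steroid response elements were rare close to starts. The oestrogen response element was searched as GGTCANNNTGACC and the androgen response element as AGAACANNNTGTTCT, on both strands. They were found in 20 (0.0740%) and 3 (0.0111%) of 27025 genes with a window and, of 11173 tested genes with one, in 2 and 1. No gene of the oestrogen-induced or androgen-responsive lists held either. Of the 2 tested genes with the oestrogen response element, both called higher, 1 is printed. The windows printed are 1 match of each element in a tested gene, in capitals, at chr2:74659560-74659619 (minus strand) before *Evx2*, a homeobox gene of the HoxD cluster, and at chr10:21993679-21993738 (plus strand) before *Sgk1*, a kinase induced by steroids.
Evx2: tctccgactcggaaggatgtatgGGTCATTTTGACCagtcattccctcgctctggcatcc
Sgk1: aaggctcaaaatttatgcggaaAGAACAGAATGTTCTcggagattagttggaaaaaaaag

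*Evx2* had an interaction of 1.38 (SE 0.34, limma adjusted p = 0.00198) and *Sgk1* one of −2.94 (SE 0.32, limma adjusted p = 1.59e-06). An absent match says only that these letters are not in these 300 bases.

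Chemokines, which direct the migration of leukocytes, were called higher for 26 of 34 genes and lower for 1, *Ccl25*, with a median interaction of 1.65, from a median change with DES of 1.55 in WT and −0.026 in αERKO. *Cxcl12*, which retains leukocytes and stem cells, had 2.08 (SE 0.23, limma adjusted p = 1.66e-06) and *Cxcl14* had 0.92 (SE 0.24, limma adjusted p = 0.00337). *Ccl8*, a monocyte attractant, had 4.64, and *Cxcl9* and *Cxcl10*, interferon-induced attractants of T cells, had 3.95 and 3.12. Complement components were called higher for 17 of 18, with *Serping1*, the C1 inhibitor, at 1.20 (SE 0.17, limma adjusted p = 1.99e-05), *Cfb* at 4.38, *C4b* at 3.52, and *C1ra* as the 1 called lower, at −0.77. *Cfd*, the complement factor D that fat secretes, was called through its αERKO arm and is described with the adipocyte markers.

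All 10 genes of MHC class II presentation were called higher, with a median interaction of 2.21, from a median change with DES of 2.18 in WT and −0.0082 in αERKO. *H2-Aa*, a class II α chain on GRCm38 chromosome 17 (34282744 to 34287823, minus strand), was at an FPKM of 121, 67.3, 71.2 and 80.2 (WT-veh), 266, 552, 574 and 375 (WT-DES), 62.5, 66.6, 51.97 and 76.4 (αERKO-veh) and 84.97, 56.8, 77.8 and 47.6 (αERKO-DES). Its interaction was 2.31 (SE 0.36, limma adjusted p = 4.5e-05), and WT-DES lay wholly above the other groups. *Cd74*, the invariant chain, had 1.58 (SE 0.31, limma adjusted p = 0.000338) and *Ciita*, the master activator of class II genes, 2.94. Markers of immune cells moved with these genes. Those of macrophages were called higher for 10 of 10, of T cells for 8 of 9, of B and plasma cells for 6 of 7 and of neutrophils for 7 of 7. *Lyz2* had 2.57 (SE 0.32, limma adjusted p = 5.28e-06), *Cd3g* 2.01 (SE 0.51, limma adjusted p = 0.0025) and *Cd79b* 2.16 (SE 0.50, limma adjusted p = 0.00125). The summed FPKM of macrophage markers was 92.9 to 162 (WT-veh), 488 to 644 (WT-DES), 65.96 to 106 (αERKO-veh) and 57.1 to 80.6 (αERKO-DES). That of T cell markers was 8.51 to 16.3 (WT-veh), 29.9 to 149 (WT-DES), 7.11 to 9 (αERKO-veh) and 6.47 to 9.77 (αERKO-DES), and that of neutrophil markers was 3.15 to 5.3 (WT-veh), 107 to 916 (WT-DES), 1.15 to 2.71 (αERKO-veh) and 1.02 to 1.68 (αERKO-DES). WT-DES replicates 2 and 3 were the highest for T cells and replicate 1 for neutrophils, and the part of these cells in the interactions was not tested.

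Interferon-stimulated genes were called higher for 19 of 25, with a median interaction of 1.61, from a median change with DES of 1.57 in WT and −0.038 in αERKO. *Gbp2*, a guanylate-binding protein of cell-autonomous defence, was at 7.15, 6.67, 5.4 and 7.26 (WT-veh), 84.04, 169.9, 112 and 66.3 (WT-DES), 6.6, 7.98, 5.59 and 6.91 (αERKO-veh) and 6.23, 5.29, 6.04 and 5.94 (αERKO-DES), an interaction of 3.93 (SE 0.29, limma adjusted p = 5.87e-08). *Irf7*, a transcription factor that amplifies the interferon response, had 1.64. The list was not uniform. Its members with the highest level, *Bst2* and *Irf9*, were not called (−0.017 (SE 0.26, limma adjusted p = 0.955) and −0.081 (SE 0.22, limma adjusted p = 0.759)). The 95% confidence interval −0.56 to 0.53 of *Bst2* and that of −0.56 to 0.40 of *Irf9* both lay within 1.5-fold either side of 0.

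The interferon-stimulated response element, bound by IRF complexes, was searched as GAAANNGAAACT on both strands of the same windows. It occurred in 82 of 27025 genes with a window (0.303%), in 43 of 11173 tested genes (0.385%) and in 8 of 20 of the interferon list (40%). Of the 43 tested genes, 30 were called higher and 2 lower, against 29.6% and 26.9% of all tested genes, and 3 had an interval of the interaction within 1.5-fold. The 60 bases around the match are printed for 4 called genes and for *Bst2*, which held the element and was not called. They lie at chr3:142620578-142620637 (plus strand), chr3:142559973-142560032 (plus strand), chr19:34583347-34583406 (plus strand), chr5:92349067-92349126 (minus strand) and chr8:71537567-71537626 (minus strand), on the strand of the gene and with the element in capitals.
Gbp2: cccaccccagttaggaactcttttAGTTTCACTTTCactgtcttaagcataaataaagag
Gbp3: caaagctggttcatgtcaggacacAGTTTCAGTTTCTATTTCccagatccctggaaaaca
Ifit3: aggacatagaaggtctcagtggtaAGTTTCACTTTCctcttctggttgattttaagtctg
Cxcl10: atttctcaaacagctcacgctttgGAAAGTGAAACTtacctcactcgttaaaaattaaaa
Bst2: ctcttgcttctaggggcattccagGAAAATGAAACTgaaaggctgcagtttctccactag

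Interactions were 3.36 for *Gbp3*, 2.35 for *Ifit3* and 3.12 for *Cxcl10*. In the *Gbp2*, *Gbp3* and *Ifit3* windows the element reads on the opposite strand, and that of *Gbp3* holds a pair of overlapping matches. No match of 1 of the 4 motifs overlapped a match of another.

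**Figure D3:**
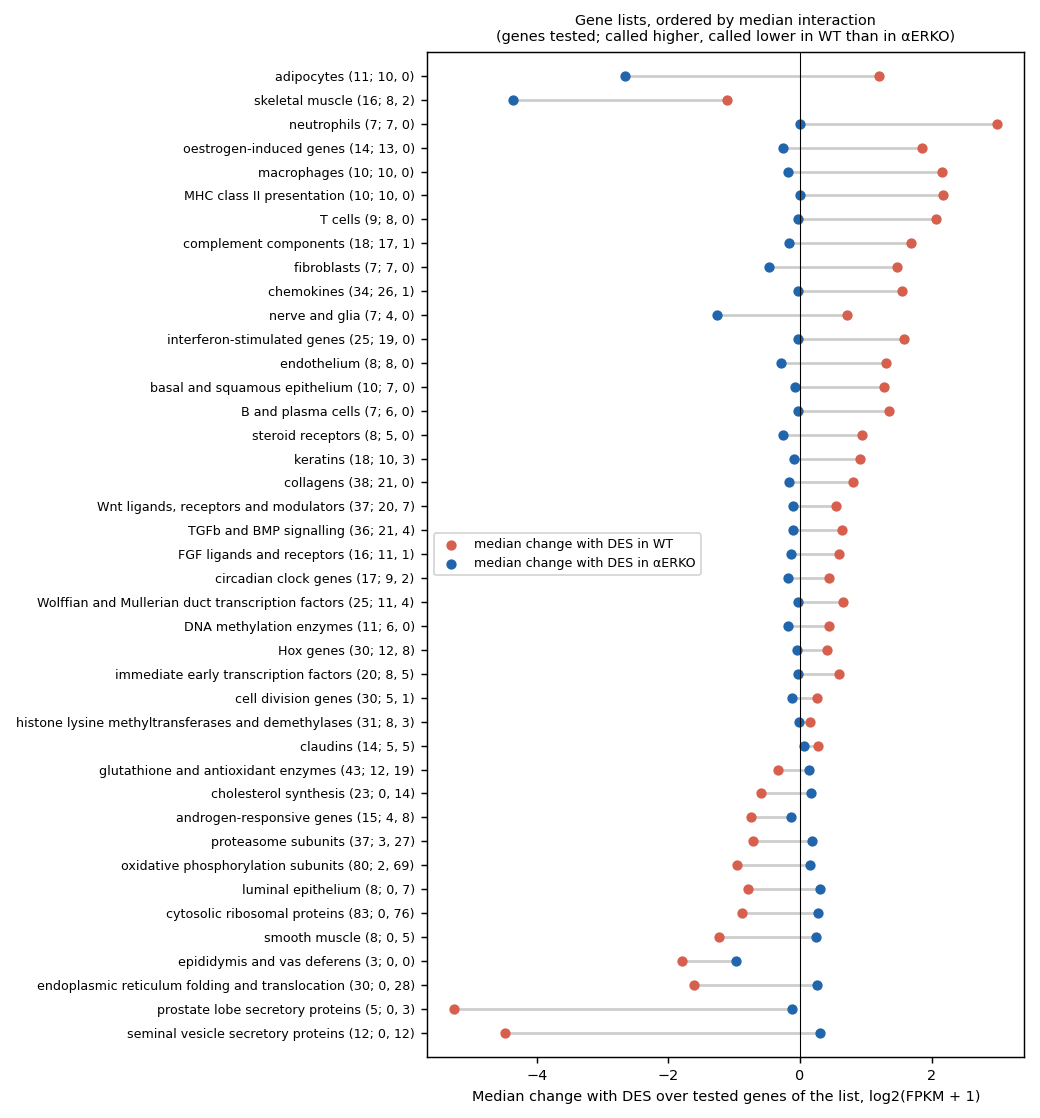
Each line is 1 of 41 gene lists, with the median change with DES of its tested genes in WT and in αERKO on log2(FPKM + 1). Beside each name stand the genes tested, those called higher and those called lower. Most αERKO medians lie close to 0 while the WT medians spread to both sides, and the lists of adipocytes, skeletal muscle, nerve and glia, and epididymis and vas deferens have αERKO medians well below 0. That of epididymis and vas deferens rests on 3 tested genes, of which 0 were called in αERKO.

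Fibroblast and endothelial markers and many collagens had a higher change in WT. Collagens were called higher for 21 of 38, with a median interaction of 1.09, from a median change with DES of 0.81 in WT and −0.18 in αERKO. *Col3a1* and *Col1a2*, the fibrillar collagens of connective tissue, had 1.32 (SE 0.23, limma adjusted p = 0.000136) and 1.46 (SE 0.23, limma adjusted p = 4.3e-05), and *Col14a1* had the highest of the list, 3.62. The basement membrane chains *Col4a1* (0.51) and *Col4a2* (0.44) were not called. All 7 fibroblast markers were called higher, with *Dcn*, a small proteoglycan of the matrix, at 2.07 (SE 0.16, limma adjusted p = 6.83e-08), and all 8 endothelial markers were too, with *Pecam1* at 1.47 (SE 0.20, limma adjusted p = 1.28e-05). Smooth muscle markers went the other way, with 5 of 8 called lower, but 0 under quantile normalization (relative median −0.38). *Tagln*, an actin-binding protein of smooth muscle, had −1.49 (SE 0.40, limma adjusted p = 0.00363). Their summed FPKM was 3812 in WT-DES replicate 1, within the range of the other groups, and 848, 1121 and 1331 in replicates 2 to 4. Without WT-DES replicate 1 the interaction of *Tagln* was −1.86.

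Of 18 keratins, 10 were called higher and 3 lower, though 0 were lower under quantile normalization. The 3 called lower were keratins of simple epithelium, *Krt18* at −1.45 (SE 0.24, limma adjusted p = 9.34e-05), *Krt19* at −1.27 (SE 0.19, limma adjusted p = 3.63e-05) and *Krt8* at −1.08. Those called higher included *Krt5* (1.13) of basal cells, *Krt13* (3.73) of mucosal squamous epithelium and *Krt20* (3.17), a keratin of gut and bladder epithelium. *Krt15* had 1.37 (SE 0.51, limma adjusted p = 0.0252), and *Krt14*, the partner of *Krt5*, was not called (0.040). Among squamous markers, *Ivl* (involucrin, 5.39), *Sprr1a* (5.04) and *Krt6a* (3.71) were called higher and *Lor* (0.23) was not. Claudins, the strand proteins of tight junctions, were called higher for 5 and lower for 5 of 14. They were 7 and 3 at equal totals and 5 and 2 under quantile normalization. *Cldn3* had −2.31 (SE 0.39, limma adjusted p = 0.000111) and *Cldn4* −0.66 (SE 0.16, limma adjusted p = 0.00238), though *Cldn4* was positive under quantile normalization (0.201). *Cldn10* (3.35), *Cldn11* (2.61), *Cldn2* (1.95), *Cldn15* (1.79) and *Cldn5* (1.56), the last an endothelial marker, were called higher.

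Hox genes, which give position along the reproductive tract, were called higher for 12 and lower for 8 of 30, that is 40% and 26.7%, against 29.6% and 26.9% of all genes. They were 18 and 4 at equal totals, where 7118 and 1969 of all 15988 genes were called. Under quantile normalization they were 7 and 7, against 3661 and 4135 of all genes. *Hoxb13*, which marks the caudal end and the prostate and lies on GRCm38 chromosome 11 (96194316 to 96197447, plus strand), was at 135, 115, 126 and 194 (WT-veh), 6.56, 12.4, 5.24 and 7.27 (WT-DES), 117, 112, 173 and 131 (αERKO-veh) and 131, 132, 88.9 and 113 (αERKO-DES). Its interaction was −3.85 (SE 0.32, limma adjusted p = 1.32e-07), with all WT-DES samples far below the rest. *Hoxb6* had −1.33 (SE 0.23, limma adjusted p = 0.000145). By cluster, a division made after the values were seen, 6 of 9 HoxB genes were called lower and 0 higher, with *Hoxb9* at −1.67. Of 8 HoxD genes, 2 were called lower, *Hoxd9* (−1.59) among them, and 1 higher, *Hoxd11* (0.79). HoxA genes were called higher for 7 of 9, such as *Hoxa7* (1.55), and HoxC genes for 4 of 4, such as *Hoxc10* (1.86). Of 25 transcription factors of the Wolffian and Müllerian ducts, 11 were called higher and 4 lower. *Gata3*, needed for the Wolffian duct, had −1.40 (SE 0.14, limma adjusted p = 7.65e-07), *Osr1* 2.89 and *Runx1* 2.37, while *Pax2* (−0.75), *Emx2* (−0.61) and *Foxa1* (−0.57) were not called.

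Among secreted signals, Wnt ligands, receptors and modulators were called higher for 20 of 37 and lower for 7. *Wif1*, a secreted Wnt inhibitor on GRCm38 chromosome 10 (121033960 to 121100650, plus strand), had the smallest adjusted p of the named genes, −4.02 (SE 0.11, limma adjusted p = 7.89e-12), and was at 109, 104, 124 and 111 (WT-veh), 7.15, 6.12, 6.57 and 6.99 (WT-DES), 137, 112, 115 and 129 (αERKO-veh) and 142, 127, 135 and 142 (αERKO-DES). WT-DES was far below the other groups. Of these, αERKO-veh overlapped both WT-veh and αERKO-DES, while WT-veh, at most 124, lay below αERKO-DES, at least 127. Other secreted modulators had a higher change in WT, *Sfrp4* at 4.09, *Dkk3* at 3.22 and *Sfrp2* at 1.37 (SE 0.22, limma adjusted p = 7.31e-05). *Axin2*, a transcriptional target of Wnt signalling, was called lower at −0.75. FGF ligands and receptors were called higher for 11 of 16, among them *Fgf10* (1.06), a stromal ligand needed for SV growth, and *Fgfr2* (0.61 (SE 0.19, limma adjusted p = 0.0094)), its epithelial receptor. *Fgf1* was the 1 called lower, at −1.16 (SE 0.16, limma adjusted p = 1.71e-05). Under quantile normalization 7 were called higher and 2 lower. TGFβ and BMP genes were called higher for 21 and lower for 4 of 36. *Gdf10*, a BMP-like ligand, had 1.08 (SE 0.33, limma adjusted p = 0.0095), *Bmp4* 1.30 and *Tgfbr2* 1.88. The inhibitory *Smad6* (−0.86) and *Smad7* (−0.77) were called lower.

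Cell division genes were called higher for 5 of 30 and lower for 1, against 29.6% and 26.9% of all genes. The count depended on scaling, with 19 higher and 0 lower at equal totals and 0 higher and 3 lower under quantile normalization. Of all 15988 genes, 7118 were higher and 1969 lower at equal totals, and 3661 and 4135 under quantile normalization. *Mki67*, a proliferation marker, had 0.84 and *Bub1b* 1.09, both called, while *Ube2c* (−0.40 (SE 0.39, limma adjusted p = 0.367)) and *Mcm6* (0.40 (SE 0.24, limma adjusted p = 0.144)) were not. Clock genes were called higher for 9 of 17. *Tef* and *Dbp*, output factors of the clock, had 1.28 (SE 0.23, limma adjusted p = 0.000167) and 1.98 (SE 0.44, limma adjusted p = 0.000955), *Per2* 2.16, and *Arntl*, of the opposite limb, −1.02. Immediate early factors were called higher for 8 and lower for 5 of 20 (40% and 25%, near the shares of all genes), with *Jund* at −1.19 (SE 0.15, limma adjusted p = 7.87e-06), *Junb* not called at 0.58 (SE 0.21, limma adjusted p = 0.0207), *Egr1* at 1.94 and *Fos* at 1.66.

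DNA methylation enzymes were called higher for 6 of 11, with *Dnmt3a*, a de novo methyltransferase, at 0.62 (SE 0.17, limma adjusted p = 0.00517), *Tet2* at 1.49 and *Gadd45b* at 2.31. Under quantile normalization 3 were called higher and 2 lower. *Dnmt3a* was at −0.030 after length correction and lost its call when some single samples were left out and with αERKO-veh replicate 1 alone. *Dnmt1*, the maintenance enzyme, was not called (0.29 (SE 0.19, limma adjusted p = 0.19)). The list's median of 0.62 was −0.0097 relative to all genes after correction for transcript length. Histone lysine methyltransferases and demethylases were, of the 41 lists, the one with the largest share of genes whose interaction was narrowly bounded, and are taken up with the genes whose change did not differ.

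In αERKO, 212 genes were lower with DES (1.33% of those tested) and 12 higher (0.0751%). That arm was unstable, with 1 gene called without αERKO-veh replicate 4 and 562 without αERKO-veh replicate 1, while the unadjusted p was 0.05 or less for 4042 genes. Genes of striated muscle and fat were among those called in the interaction through this arm. *Cox8b*, the muscle and brown fat form of a cytochrome c oxidase subunit on GRCm38 chromosome 7 (140898945 to 140900446, minus strand), was at 10.5, 2.43, 75.4 and 104 (WT-veh), 14.97, 43.2, 54.7 and 146 (WT-DES), 17.99, 93.1, 89.1 and 53.5 (αERKO-veh) and 1.89, 0.52, 0.84 and 0.74 (αERKO-DES). It had an interaction of 5.86 (SE 1.32, limma adjusted p = 0.00106), from 1.05 in WT and −4.81 in αERKO. The αERKO-DES samples were all below the other 12, which overlapped. *Tnnt3* and *Tnni2*, troponins of fast skeletal muscle, had 5.38 (SE 1.61, limma adjusted p = 0.00796) and 4.91 (SE 1.53, limma adjusted p = 0.0102), with *Tnnt3* at 22.6, 223, 347 and 195 in αERKO-veh and 3.78, 0.74, 14.5 and 232 in WT-veh, a wide spread within both vehicle groups. When αERKO-veh replicate 1 alone stood for its group, none of the 3 was called in the interaction, which was then 4.34 for *Cox8b*, 2.83 for *Tnnt3* and 2.39 for *Tnni2*.

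Skeletal muscle markers as a list were called higher for 8 and lower for 2 of 16, with a median change of −1.11 in WT and −4.35 in αERKO, and 11 of them were lower with DES in αERKO. Their summed FPKM was 746 to 2547 (WT-veh), 46.5 to 359 (WT-DES), 799.7 to 3096 (αERKO-veh) and 599 to 864 (αERKO-DES). It was 2547 in WT-veh replicate 4 and 2139, 3096 and 1903 in αERKO-veh replicates 2 to 4. *Acta1*, the member with the highest level, made up much of these sums and followed another course, at 530.1, 577, 483 and 705 (WT-veh), 235, 24.9, 43.1 and 48.95 (WT-DES), 471, 526, 625 and 521 (αERKO-veh) and 636, 510.5, 600.3 and 456 (αERKO-DES) with an interaction of −3.27 (SE 0.64, limma adjusted p = 0.000374). Taken as a mean of log2(FPKM + 1), in which each marker counts equally, the list was at 1.80 to 6.15 (WT-veh), 1.22 to 2.17 (WT-DES), 3.49 to 6.85 (αERKO-veh), 1.65 to 2.06 (αERKO-DES), so that both DES groups lay in the same low range. WT-veh replicates 1 and 2, at 2.21 and 1.80, lay in or near that range too, with replicate 3 at 3.07 and replicate 4 at 6.15. Adipocyte markers were called higher for 10 of 11, from a median change of 1.20 in WT and −2.65 in αERKO. Their summed FPKM was 254 to 1212 (WT-veh), 962 to 2299 (WT-DES), 116 to 1243 (αERKO-veh) and 42.2 to 88.2 (αERKO-DES), lowest in all 4 αERKO-DES samples. *Fabp4*, a fatty acid carrier of adipocytes, had 3.86 (SE 0.81, limma adjusted p = 0.000606) and *Cfd* 4.66 (SE 1.07, limma adjusted p = 0.00126). *Car3*, a carbonic anhydrase abundant in fat and muscle on GRCm38 chromosome 3 (14863512 to 14872523, plus strand), was at 124, 37.3, 103 and 201 (WT-veh), 301, 368, 211 and 482 (WT-DES), 77.9, 274, 57.1 and 142 (αERKO-veh) and 4.71, 9.17, 4.32 and 1.03 (αERKO-DES) and passed in opposite directions, 1.71 in WT and −4.53 in αERKO. Its interaction was 6.24 (SE 0.81, limma adjusted p = 8.29e-06). *Cyp2e1*, a cytochrome P450 of liver and fat, changed by 2.31 in WT and −3.32 in αERKO, an interaction of 5.63 (SE 1.01, limma adjusted p = 0.000174). Nerve and glia markers were called higher for 4 of 7, with *Uchl1* not called (1.98 (SE 0.87, limma adjusted p = 0.0527)). The part of muscle, fat and nerve in these interactions was not tested.

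**Figure D4:**
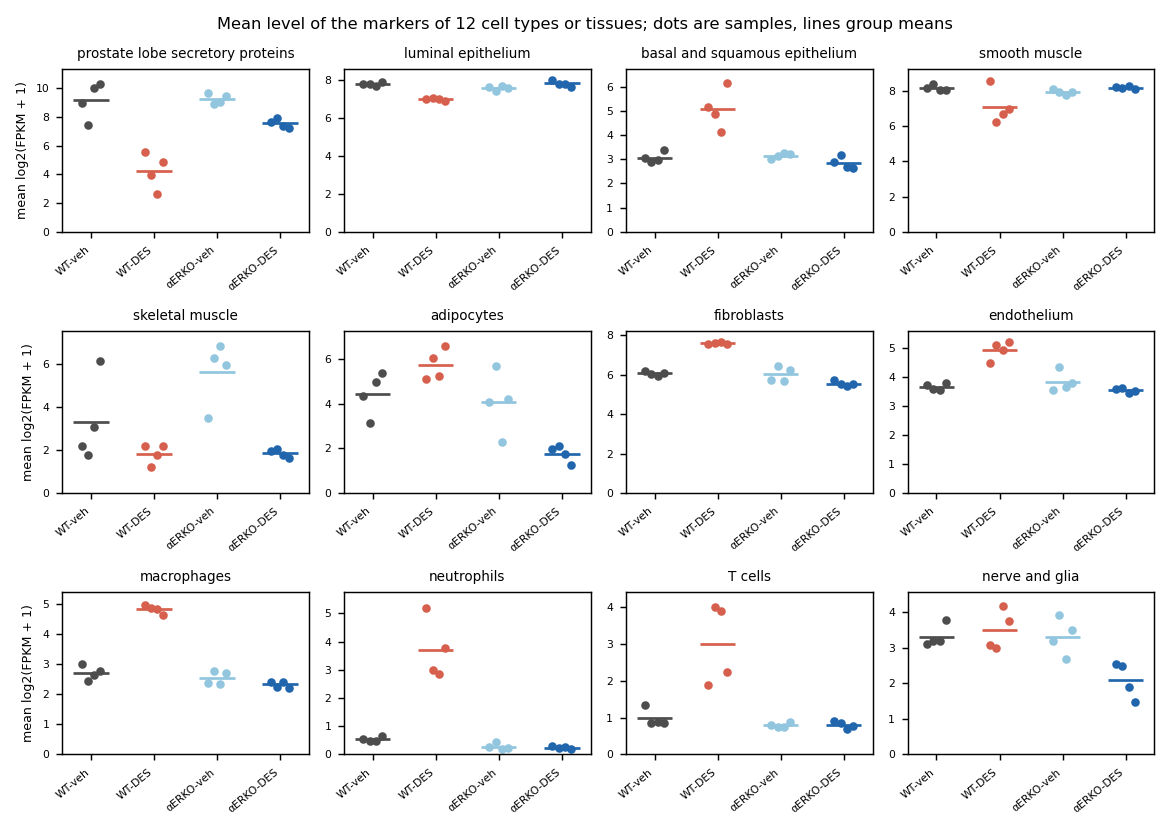
Each panel shows the mean log2(FPKM + 1) of the markers of 1 cell type or tissue, with a dot per sample and a line at the group mean. Skeletal muscle markers are high in 1 WT-veh sample and 3 αERKO-veh samples, adipocyte markers are lowest in αERKO-DES, and those of macrophages, fibroblasts and endothelium are highest in WT-DES.

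A change with DES of at least 1.5-fold that did not differ between genotypes was rare. It required that the average change over both genotypes passed the thresholds and that the 95% confidence interval of the interaction lay wholly within 1.5-fold either side of 0. The average change was higher with DES for 1285 genes (8.04%) and lower for 910 (5.69%), and of these only *Syt10* met both conditions (0.00625% of genes tested). *Syt10*, a synaptotagmin that acts in regulated secretion, was at an FPKM of 0.94, 0.9, 1.19 and 1.27 (WT-veh), 0.12, 0.02, 0.22 and 0.35 (WT-DES), 2.72, 3.96, 2.13 and 2.3 (αERKO-veh) and 0.49, 1.54, 1.37 and 1.05 (αERKO-DES). It changed by −0.82 in WT and −0.84 in αERKO, with an interaction of 0.022 (95% confidence interval −0.51 to 0.55). Each DES group lay below the vehicle group of its own genotype. The likeness rests on the pseudocount at these low levels, since mean FPKM was 6.06-fold lower with DES in WT and 2.50-fold lower in αERKO, and with a pseudocount of 0.1 the interaction was −0.92 (95% confidence interval −2.09 to 0.24). No gene met both conditions at that pseudocount, and leaving out 1 sample at a time gave none for 10 of the 16 samples. The interval reached less than 1.5-fold to either side of the estimate for 12788 genes. Without the fold threshold on the average change, 340 genes met the rule. With the margin at 2-fold, 18 genes met it (0.113%), of which 17 were lower with DES and *Nrtn* was higher. With a pseudocount of 0.1 the interval stayed within 2-fold for 4 of the 18, *AU021092*, *AU022754*, *Ccl11* and *Pcbd1*, and the interaction was called for 3, *9130019P16Rik* (−1.69), *AK142627* (−1.79) and *Perm1* (−0.72).

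*Nrtn* encodes neurturin, a ligand that keeps alive neurons of the autonomic system, and was at 19.7, 15.9, 15.8 and 19.5 (WT-veh), 46.6, 45.4, 24.03 and 30.96 (WT-DES), 16.7, 13.97, 13.1 and 13.9 (αERKO-veh) and 27.3, 25.03, 19.1 and 16.5 (αERKO-DES). It changed by 0.97 in WT and 0.55 in αERKO, with an interaction of 0.42 (95% confidence interval −0.17 to 1.00), and DES samples were above the vehicle samples of their genotype except for αERKO-DES replicate 4, which was below αERKO-veh replicate 1. *Ccl11*, the eosinophil attractant eotaxin, was at 44.8, 48.5, 48.9 and 43.5 (WT-veh), 20.8, 24.6, 23.04 and 40.7 (WT-DES), 33.8, 42.8, 27.7 and 46.3 (αERKO-veh) and 23.5, 28.9, 16.1 and 30.5 (αERKO-DES), and had an interaction of −0.19 (95% confidence interval −0.85 to 0.46). Its DES and vehicle samples were separate in WT and overlapped in αERKO. The neuropeptide genes *Gal* and *Sst*, the secretory granule gene *Ptprn2*, *Amhr2*, the receptor of anti-Müllerian hormone, and the muscle or tendon genes *Myo18b*, *Perm1* and *Tnmd* were among the rest. Within the vehicle groups, *Amhr2*, *Myo18b*, *Sst*, *Tnmd* and *Tmem52*, another of the 18, were highest in WT-veh replicate 4 and αERKO-veh replicates 2 to 4. Skeletal muscle markers were high in those samples, and the part of muscle in these changes was not tested. The margin bounds the difference and does not make it 0, and for *Perm1* the interval excluded 0, with an interaction of −0.57 (SE 0.20, limma adjusted p = 0.0179), as it did for the entry *AK142627* at −0.52 (SE 0.19, limma adjusted p = 0.0223). Besides *Nrtn* and *Ccl11*, *Pcbd1*, a cofactor recycling enzyme, and the clone *AU021092* reached a mean FPKM of 10 in a group, and the other 14 did not.

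Requiring a call in each genotype instead gave 9 genes in the same direction (0.0563%), all lower with DES, and 112 in opposite directions (0.701%). The 9 were not stable, since no gene was called in the same direction without WT-veh replicate 3, αERKO-veh replicate 2 or 4, or αERKO-DES replicate 1, 2 or 3, that is for 6 of the 16 samples left out 1 at a time. The 2 of the highest level encode secreted proteins. *Msmb*, a seminal microprotein of the prostate, was at 689, 94.8, 1082 and 1586 (WT-veh), 41.9, 10.3, 3.31 and 24.8 (WT-DES), 1509, 954, 766 and 855 (αERKO-veh) and 93.8, 249, 46.5 and 29.1 (αERKO-DES). It changed by −5.25 in WT and −3.69 in αERKO, with an interaction of −1.56 whose 95% confidence interval −4.16 to 1.05 does not separate equal from unequal change. *Defb50*, a β-defensin, was at 1104, 642, 1445 and 1946 (WT-veh), 91.1, 100.01, 41.5 and 91.7 (WT-DES), 1693, 1153, 1074 and 1131 (αERKO-veh) and 451, 628, 242 and 278 (αERKO-DES). All DES samples were below the vehicle samples of their genotype, and the change was larger in WT, −3.93 in WT and −1.74 in αERKO, an interaction of −2.20 (SE 0.52, limma adjusted p = 0.00158). *Casq1* and *Mybpc1*, genes of striated muscle, were highest in WT-veh replicate 4 and αERKO-veh replicates 2 to 4, the samples with high skeletal muscle markers. *Nrap*, another such gene, was at 6.09, 4.73, 5.02 and 6.31 in WT-veh, with replicate 4 close to the others, and at 3.5, 9, 12.3 and 8.14 in αERKO-veh, where replicates 2 to 4 were again the highest and replicate 1 lay within the αERKO-DES samples (3.08, 4.2, 2.06 and 3.75). Its interaction was called lower at −0.998. *Ddc*, the decarboxylase that makes dopamine and serotonin, changed by −0.94 in WT and −1.65 in αERKO, and the clones *5033404E19Rik* and *5430419D17Rik* by −0.89 in WT and −1.61 in αERKO, and −3.22 in WT and −3.40 in αERKO.

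**Figure D5:**
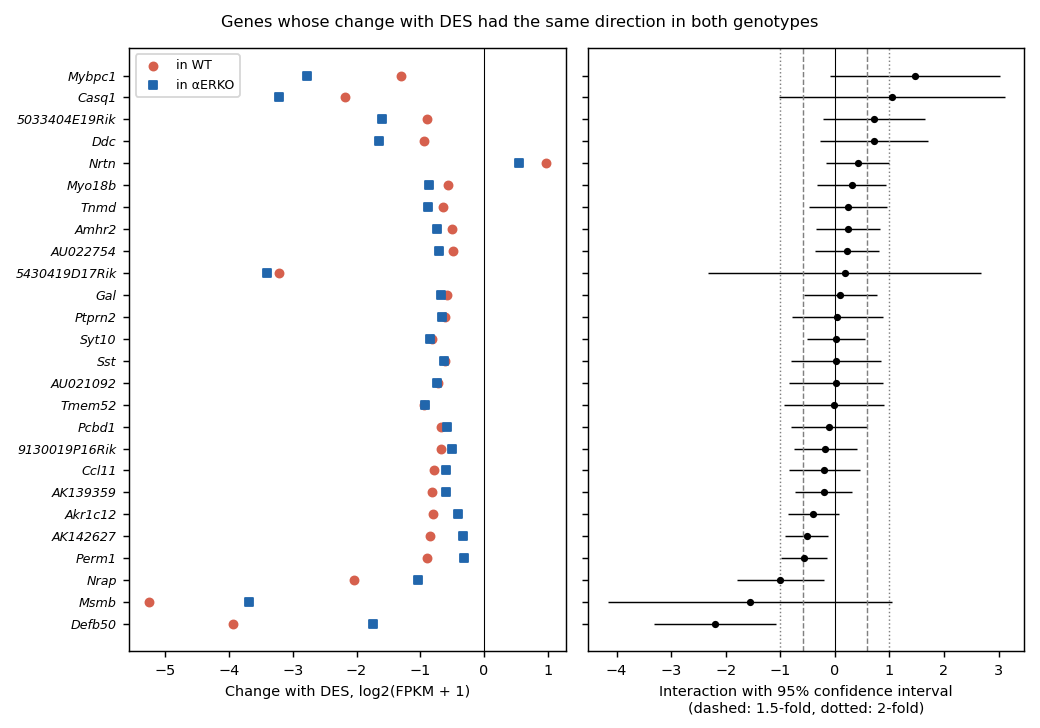
The left panel gives the change with DES in WT and in αERKO for each of the genes that met the 2-fold margin or were called in both genotypes in the same direction, on log2(FPKM + 1). The right panel gives the interaction with its 95% confidence interval, which lies within the dashed lines of 1.5-fold for *Syt10* and is wide for *Msmb* and *5430419D17Rik*.

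Many more genes had an interaction bounded within 1.5-fold whether or not they changed, 2869 of 15988 (17.9%), a set defined after the data were seen. Their median change was −0.014 in WT and 0.029 in αERKO, and only *Syt10* and *Tff3*, a trefoil peptide, were called in WT. *Tff3* was at 0.37, 0.7, 0.5 and 1.02 (WT-veh), 0, 0, 0.27 and 0 (WT-DES), 1.86, 2.15, 1.54 and 1.19 (αERKO-veh) and 1.06, 0.69, 1.1 and 0.66 (αERKO-DES), with all DES samples below the vehicle samples of their genotype, a change of −0.62 in WT and −0.51 in αERKO and an interaction of −0.11 (95% confidence interval −0.57 to 0.35). Here too the levels are low and the pseudocount decides, since mean FPKM was 9.59-fold lower with DES in WT and 1.92-fold lower in αERKO, and with a pseudocount of 0.1 the interaction was −1.48 (limma adjusted p = 0.033). Histone lysine methyltransferases and demethylases were bounded for 13 of 31 genes (41.9%), among them *Ezh2*, of Polycomb, and *Ehmt2*, which methylates lysine 9 of histone H3 (−0.23 (SE 0.084, limma adjusted p = 0.0233)). In the same list *Setd8*, the histone H4 lysine 20 methyltransferase, was called lower at −1.73 (SE 0.14, limma adjusted p = 1.41e-07), and the list's median of 0.19 was −0.26 relative to all genes after correction for length. The 8 genes of the list called higher and 3 called lower became 17 and 1 at equal totals and 2 and 7 after length correction. Of 5 lists added after the data were seen, zinc finger genes of the Zfp series were bounded for 123 of 326 (37.7%), nucleoporins for 7 of 19 (36.8%) and splicing factors for 15 of 43 (34.9%). RNA polymerase II and Mediator subunits were bounded for 6 of 42 (14.3%) and translation initiation factors for 4 of 51 (7.84%). No ER folding, complement, MHC class II or SV secretory gene was bounded in this way. All these shares are at a pseudocount of 1, which understates changes of low genes.

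Transcript length moved with the interaction. Across genes, which are not independent replicates, Spearman's rho with length was 0.267 for the interaction, 0.265 for the change in WT and −0.320 for that in αERKO. The median longest transcript was 3807 bases for genes called higher and 2402.5 for genes called lower, against 3239 for all. With each sample corrected for its length trend, 7875 of 15035 genes were called in the interaction, against 8509 of them without it, and 6821 were called both ways.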

How the data were processed

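RNA-seq was done on 16 SV samples in 4 groups of 4. Per the labels and methods, the authors aligned paired-end reads to mm10 with TopHat 2.0.4 and computed expression with Cufflinks 2.0.2. The gene annotation is not given in the sources used here. The deposited unit is FPKM, in which the fragments of a gene are divided by its exon length and by the mapped total, for 31274 genes with 2 decimals, and no count of reads or depth was used.

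Values were analysed as log2(FPKM + 1) in limma 3.58.1 (R 4.3.3), in 1 linear model with a mean per group over 16 samples (12 residual degrees of freedom), with moderated variances (eBayes, trended). P-values were adjusted by Benjamini-Hochberg over the 15988 genes whose mean FPKM exceeded 1 in any group. A call needed 0.05 or less after adjustment and 1.5-fold or more on this scale, which understates changes of low genes. "Higher" and "lower" refer to WT minus αERKO. The study's Cuffdiff has no interaction term and was not rerun. P-values measure the spread between samples, and WT-DES samples may be pools of mice, of which the methods name fewer than the 4 WT-DES samples here. The median standard error of the interaction was 0.171.

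Members, lists, rules and tests were chosen with earlier results of these data known. Named genes were, at a mean FPKM of at least 10, the 8 highest and 8 lowest interactions with WT-DES separate from the other 12 samples, the 4 largest called oppositely in both genotypes, the 4 largest called in αERKO alone, the genes with equal change (none reached that level), the 2 most abundant members of each list (1 for cell markers) and *Esr1*, *Esr2*, *Gper1*, *Ltf*, *Pgr* and *Svs4*. All other genes were named after their values were seen. Some genes that the rule covers are not reported here. Marker genes *Trac* and *Ly6g* had no row.

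Replicate numbers were checked for pairing. Same-numbered samples of 2 groups had correlations of their deviations from −0.215 to 0.277, with 3 of 24 over 0.1, so the numbers were not used as pairs. Lengths and coordinates are from GENCODE M21 (GRCm38), matched for 94.0% of tested genes. Promoter windows are from RefSeq (GRCm38.p6), matched by symbol for 11173 tested genes. The model was tested on simulated data. Figures were drawn with matplotlib 3.10.9 in Python 3.11.15.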

Additional observations from a re-analysis of the deposited data

Results flagged for a closer look

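The change with DES differed between WT and αERKO for 9025 genes by the interaction term of the limma model, which is the comparison the report describes.

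Among the named genes, 26 of 352 groups of 4 samples held 1 sample whose gap to its nearest neighbour exceeded Dixon's 95% critical share of the group's range. Chance gives about 1 in 20 such groups where values are normally distributed and groups independent. FPKM of genes measured in the same 16 samples need not be so. By FPKM, WT-DES replicate 1 stood apart for *Aqp3* at 202 (next 47.9), *S100a9* at 415 (next 97.4), *S100a8* at 371 (next 85.5), *Lcn2* at 619 (next 289), *Krt18* at 381 (next 228), *Hoxb6* at 26.02 (next 44.8), *Srebf2* at 53.5 (next 30.2), *Tagln* at 981 (next 406) and *Acta1* at 235 (next 48.95), each value set beside that of the nearest other WT-DES sample. WT-veh replicate 4 stood apart for *Krt4* at 18.4 (next 3.58), *Gsdmc2* at 10.2 (next 2.95), *Tnnt3* at 232 (next 14.5), *Tnni2* at 232 (next 14.6) and *Uchl1* at 53.7 (next 33.98). In the remaining groups the samples that stood apart were *Sprr2f* at 2.52 in αERKO-DES replicate 2 (next 0.67), *Aqp3* at 3.71 in αERKO-DES replicate 2 (next 0.27), *S100a8* at 0.87 in αERKO-veh replicate 2 (next 0.45), *Dnase2b* at 1060.2 in αERKO-DES replicate 3 (next 706), *Cxcl14* at 57.97 in WT-veh replicate 3 (next 63.98), *Serping1* at 126 in αERKO-DES replicate 1 (next 105). They also included *Krt19* at 412 in αERKO-veh replicate 3 (next 327), *Hoxb6* at 91.5 in WT-veh replicate 1 (next 81.8), *Prdx6* at 452 in αERKO-veh replicate 2 (next 579), *Tef* at 46.7 in WT-veh replicate 1 (next 36.3), *Dbp* at 19.2 in αERKO-veh replicate 3 (next 51.05) and *Pecam1* at 28.8 in αERKO-DES replicate 2 (next 24.99).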

How the results depend on the processing

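The number of interaction genes stayed within 1.5 times 9025 under all settings, from 7098 to 11439, but the genes were not all the same. Of the 9025, 6206 were also called under quantile normalization, 6698 at equal totals, 6821 after length correction and 7146 with αERKO-veh replicate 1 alone. Genes with a higher change in WT numbered 3073 at a mean FPKM above 5 and 7118 at equal totals, where 1969 had a lower change. Without the fold threshold 11792 genes changed in WT. The αERKO arm was least stable. Its 224 calls became 439 with a pseudocount of 0.1, 120 without a minimum on FPKM, 936 with sample weights, 5 under quantile normalization, 2 at an adjusted p of at most 0.01, 455 without the fold threshold and 6 with αERKO-veh replicate 1 alone, a setting added after seeing the data in which that sample is assumed to vary like the other groups. In the same order, genes called in both genotypes went from 121 to 287, 62, 629, 2, 0, 357 and 0. Those called in the same direction went from 9 to 35 with sample weights and to 0 under quantile normalization, an adjusted p of at most 0.01 and αERKO-veh replicate 1 alone. Genes whose change did not differ numbered 340 without the fold threshold, 18 at 2-fold, 2 with sample weights and 0 with a pseudocount of 0.1, a mean FPKM above 5, quantile normalization, equal totals or αERKO-veh replicate 1 alone.

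Leaving out 1 sample at a time gave 8652 to 9313 interaction genes (4508 to 4852 higher, 4144 to 4461 lower), 7534 to 7948 calls in WT, 1 to 562 in αERKO, 0 to 349 in both, 0 to 18 in both in the same direction and 0 to 2 whose change did not differ. In αERKO 3 or fewer genes were called without WT-veh replicate 3, αERKO-veh replicate 2 or 4, or αERKO-DES replicate 1, 2 or 3. With the replicate number as a block, 8982 interaction genes were called, 8950 of them among the 9025, and no other count moved by over 1.5 times. Of the named genes, the direction reversed under quantile normalization for *Rpl41* (0.44), *Cldn4* (0.201) and *Gpx1* (0.159), and after length correction for *Dnmt3a* (−0.030). With αERKO-veh replicate 1 alone the call was lost for *Cox8b*, *Tnnt3*, *Tnni2*, *Cldn4*, *Gdf10*, *Sc4mol*, *Dnmt3a*, *Krt15*, *Tagln*. Leaving out single samples ended the calls of *Sc4mol*, *Dnmt3a*, *Fgfr2*, *Krt15* or *Cldn4* and gave calls to *Junb* or *Uchl1*. The cause of these shifts was not tested. FPKM without depth limits the precision of low genes.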
